A study of Capra hircus with 9 samples.

Results

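The aminoacyl tRNA synthetase genes of the goat mammary gland were compared between late lactation (LL), the dry period (DP) and late gestation (LG). The members were chosen by gene symbol alone, as every gene of the deposited table whose symbol names a synthetase or 1 of the scaffold proteins AIMP1 and AIMP2. This gave 40 of the 23499 genes, namely 21 cytosolic synthetase genes, 17 mitochondrial synthetase genes, whose symbols end in 2, and the 2 scaffold genes. TARSL2 ends in 2 but is the second cytosolic threonyl enzyme, and it was counted as cytosolic. All 40 genes passed the filter on low values.

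The 9 libraries came from mammary tissue of 9 healthy Laoshan dairy goats of equal parity, untreated and kept under 1 management, with 1 library per goat. The LL goats (n = 3) were sampled 240 days postpartum, the DP goats (n = 3) 300 days postpartum and the LG goats (n = 3) 140 days after mating. Each animal was sampled at a single stage, so the stages differ in animals as well as in physiology. The libraries hold RNA of whole tissue, and fewer cells of a type cannot be told apart from less RNA per cell in them.

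Aminoacyl tRNA synthetases join each amino acid to its own tRNA, the step that supplies the ribosome with charged tRNA. The cytosolic enzymes serve the translation of nuclear genes, including those of the milk proteins, while a separate nuclear-encoded set charges the tRNAs inside mitochondria. Several cytosolic enzymes are held together with AIMP1, AIMP2 and EEF1E1 in the multisynthetase complex, and a subset of cytosolic synthetase genes is known to be transcribed by ATF4, the factor of the amino acid and unfolded protein responses. In the lactating gland, caseins and whey proteins make up much of the protein made, and charged tRNA is needed for each of their residues.

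The values were read as FPKM, reads scaled to transcript length and sequencing depth, and the number of reads behind each value is unknown. Milk protein RNA took very different shares of the libraries. The summed deposited FPKM of 10 markers of luminal secretory epithelium was 171500 to 227100 in LL, with 491 to 812 in DP and 7360 to 9560 in LG. The general level of the other genes also differed between libraries, and each library was put on a common scale by a median-ratio factor of 0.498 to 0.606 for LL, 1.44 to 1.53 for DP and 1.2 to 1.31 for LG. The results below are given in scaled FPKM unless deposited FPKM is named. A gene was called when its Benjamini-Hochberg adjusted p in limma was below 0.05 and its log2 fold change on the log2(scaled FPKM + 1) scale was at least 1 in size.

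The markers of other cell types also moved with stage. The summed scaled FPKM of 11 leukocyte markers was 131 to 176 in LL, but 287 to 468 in DP and 124 to 161 in LG, so that DP stood above both other stages. That of 7 fibroblast markers was 218 to 332, 518 to 2415 and 528 to 962. In DP against LL, 6 of 9 leukocyte markers tested and 6 of 7 fibroblast markers were called higher, beside 13.8% of all genes tested, and 5 of 10 luminal markers were called lower, beside 8.79%. In LG against DP, 7 leukocyte and 3 fibroblast markers were called lower (6.88% of all genes) and 5 luminal markers higher (6.37%). For LG against LL, 1 leukocyte marker was called higher and 2 lower, 2 fibroblast markers were higher and 4 luminal markers were lower (10.7% of all genes were higher and 6.61% lower). None of the leukocyte or fibroblast markers was at 0 in any library, and the part of these cells in the synthetase values was not tested.

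The members fell into distinct stage patterns, which are seen in the map of scaled values by library. Most cytosolic genes were highest in LL. The mitochondrial genes were spread around a common level, with VARS2 and PARS2 among those lowest in LL.

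**Figure D1:**
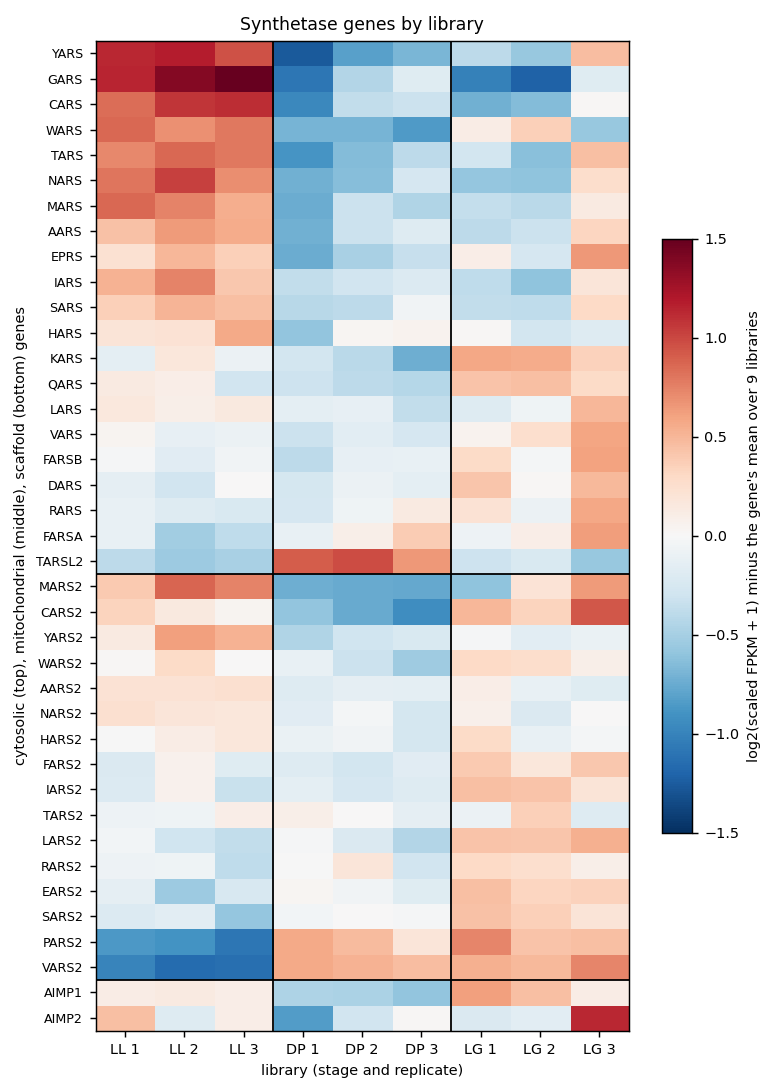
Level of 39 synthetase and scaffold genes in each of the 9 libraries, as log2(scaled FPKM + 1) minus the mean of that gene over the libraries; rows are ordered within each class by the difference of DP from LL. YARS, GARS and CARS at the top are high in all 3 LL libraries, VARS2 and PARS2 are low in all 3, and AIMP2 is highest in LG replicate 3, at 13.2 scaled FPKM.

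In DP against LL, 7 of the 21 cytosolic genes (33.3%) were called lower and 1 (4.76%) was called higher. Among all 14701 genes tested, 8.79% were called lower and 13.8% higher. With adjusted p alone, 12 cytosolic genes (57.1%) were lower and 1 was higher, against 28.6% and 28.2% of all genes. The median log2 fold change of the cytosolic genes was −0.73, and that of all genes tested was 0.00.

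The direction of single cytosolic genes depended on the scaling. In deposited FPKM the summed cytosolic level was 305 to 378 in LL, with 477 to 516 in DP and 538 to 748 in LG, so that without scaling the cytosolic median of DP against LL was 0.66, while the median of all genes stood at 1.09. Relative to the median gene, the cytosolic median lay lower in DP than in LL under the scaling used and under each of the 17 alternatives that can move it, by 0.39 to 1.26 on the log2 scale. The falls described here are falls relative to the other genes of the table.

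YARS, the tyrosyl enzyme (gene ID 102170371, chromosome 2, 14839442 to 14870803), had the largest fall of DP against LL. It measured 38.0, 39.2 and 33.5 scaled FPKM in LL and 6.45, 9.12 and 10.1 in DP. The 3 DP libraries lay far below the lowest LL library, with a log2 fold change of −2.00 ± 0.26 (SE, adjusted p = 0.000202). GARS, which makes the glycyl enzyme of both the cytosol and the mitochondria (gene ID 102169829, chromosome 4, 54488541 to 54560670), measured 33.8, 40.0 and 47.0 in LL and 6.43, 10.6 and 12.9 in DP. Its groups also lay apart, with a change of −1.95 ± 0.30 (adjusted p = 0.000563). Both genes were lower in DP in mean deposited FPKM too. The deposited YARS values of 9.85 to 14.6 in DP lay below the 18.9 to 21.7 of LL, whereas the GARS values of 9.83 to 18.5 in DP and 16.8 to 28.5 in LL overlapped.

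The other 5 called genes fell by smaller amounts. CARS, the cysteinyl enzyme, measured 28.9, 34.4 and 35.0 in LL and 7.58, 12 and 12.4 in DP (log2 fold change −1.56 ± 0.24, adjusted p = 0.000509). WARS, the tryptophanyl enzyme, measured 54.5, 48.2 and 51.7 in LL and 17.9, 17.8 and 16.0 in DP (−1.52 ± 0.22, adjusted p = 0.00035). In neither gene did a DP library reach the lowest LL library. WARS is also known as an interferon-induced gene. The summed scaled FPKM of 10 interferon response genes was 25 to 30.7 in LL and 56.3 to 80.3 in DP, so it was higher in DP while WARS was lower. In LG replicates 1, 2 and 3 that sum was 82.6, 110 and 57.4, and WARS measured 31.9, 38.1 and 19.6. A link between them was not tested.

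TARS, the threonyl enzyme, measured 53.5, 58.6 and 56.0 in LL and 16.9, 20 and 24.1 in DP (−1.43 ± 0.26, adjusted p = 0.00129). NARS, the asparaginyl enzyme, measured 42.7, 49.9 and 39.6 in LL and 14.2, 15.1 and 20 in DP (−1.38 ± 0.24, adjusted p = 0.00121). Their stages did not overlap. MARS, the methionyl enzyme, measured 24.7, 22.7 and 19.6 in LL and 7.44, 10.3 and 9.40 in DP (−1.22 ± 0.18, adjusted p = 0.000459). The deposited MARS values followed those of a neighbouring gene exactly, as described at the end.

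The calls of these 5 genes rested on the scaling. With factors from genes above 10 FPKM their changes were −0.59 in MARS to −0.92 in CARS, short of the fold threshold, whereas YARS (−1.37) and GARS (−1.31) were still called. Quantile normalization left TARS, NARS and MARS short of it as well (−0.91, −0.95 and −0.97). Without scaling none of the 7 was called lower. In mean deposited FPKM, MARS was higher in DP than in LL (13.2 against 12.2), and NARS (24.1 against 24.3) and TARS (29.8 against 31.0) were nearly level.

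Among the cytosolic genes below the fold threshold, AARS, SARS, EPRS, IARS and KARS were lower in DP with adjusted p alone, and without scaling their changes were positive, from 0.40 in AARS to 0.94 in KARS. EPRS, a single protein that charges both glutamate and proline, measured 32.5, 39.4 and 35.5 in LL and 16.1, 19.4 and 21.4 in DP, with no overlap (−0.89 ± 0.23, adjusted p = 0.00829). The changes of AARS (alanyl) and IARS (isoleucyl) were −0.96 and −0.84. SARS (seryl) changed by −0.73. KARS, the lysyl enzyme of both compartments, had the highest FPKM of the synthetases in each library except DP replicate 3, where SARS was higher. It measured 68.8, 85.8 and 71.4 in LL and 62.6, 57.3 and 45.3 in DP (−0.45 ± 0.17, adjusted p = 0.0467), and this sign turned under 3 other scalings.

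The remaining cytosolic genes, apart from TARSL2, did not pass. HARS (histidyl), QARS (glutaminyl) and LARS (leucyl) had fold changes of −0.50, −0.36 and −0.34, and VARS (valyl), FARSB and DARS (aspartyl) of −0.19, −0.12 and −0.03. RARS (arginyl) and FARSA stood at 0.12 and 0.45. FARSA and FARSB are the catalytic and the second subunit of 1 phenylalanyl enzyme, and the interval for FARSA reached from −0.0029 to 0.91 and that for FARSB from −0.52 to 0.27.

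TARSL2 (gene ID 102183828, chromosome 21, 28377839 to 28422641) was the cytosolic gene called higher in DP. In deposited FPKM it measured 0.13, 0.07 and 0.11 in LL, but 3.19, 3.25 and 2.27 in DP and 0.39, 0.51 and 0.15 in LG. The DP libraries stood apart from the other 6, with a log2 fold change of 1.32 ± 0.15 against LL (adjusted p = 7.62e-05). It reached the 0.5 FPKM of the filter in the 3 DP libraries and 1 LG library alone, so that it was tested through the stage in which it was high. Its partner TARS, which charges the same tRNA, was highest in LL, and the ratio of TARSL2 to TARS was 0.00216 to 0.00488 in LL, with 0.0654 to 0.124 in DP and 0.00259 to 0.0204 in LG. The TARSL2 values of LL and LG lie below 0.7 FPKM and those of DP above it. The range around this level is sparsely filled in LL and LG, as described with the low mitochondrial genes.

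**Figure D2:**
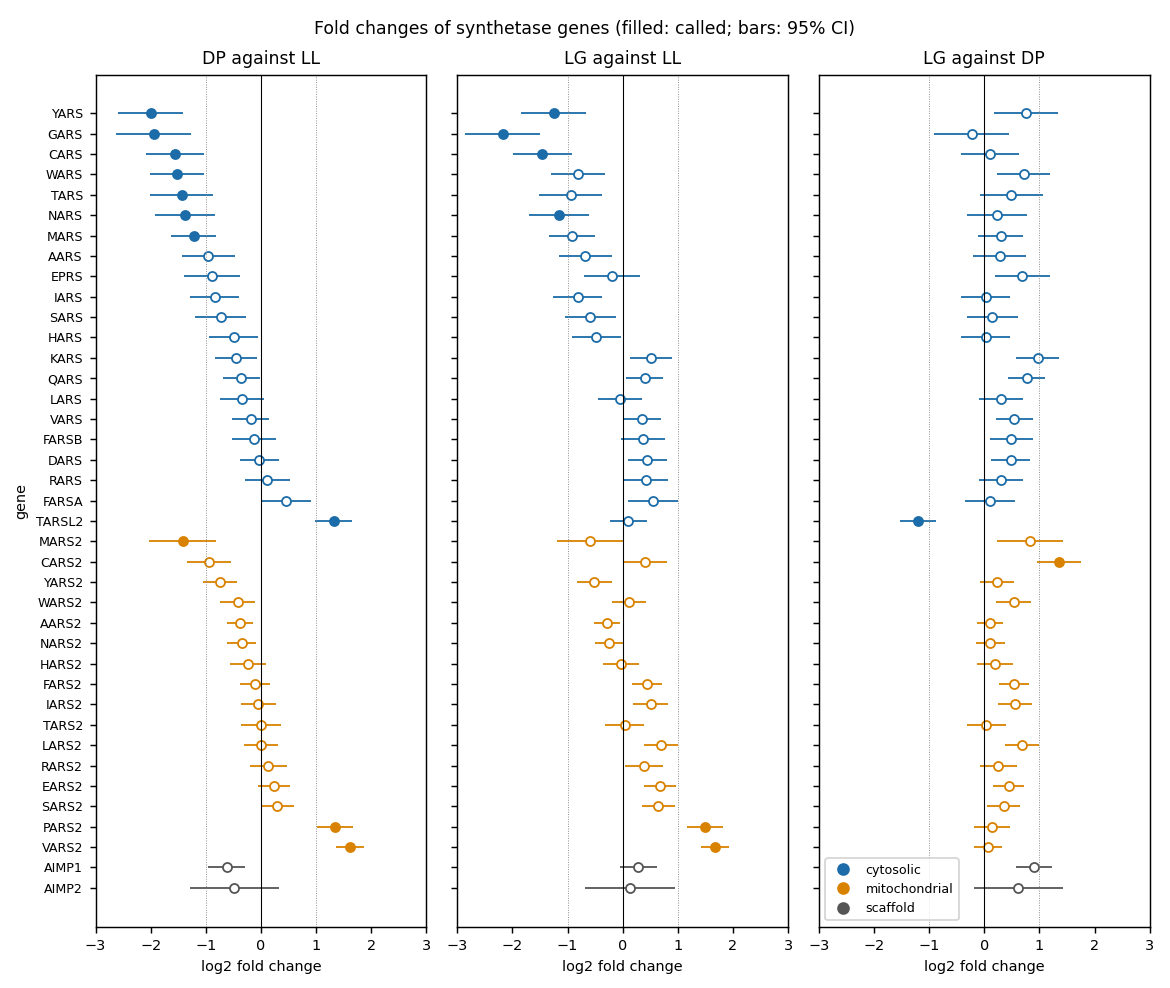
Log2 fold change of 39 members on the log2(scaled FPKM + 1) scale with its 95% confidence interval, for DP against LL, LG against LL and LG against DP; filled points were called and dotted lines mark a change of 1 in size. Of the 21 cytosolic genes, 18 lie to the left of 0 in DP against LL, and all 16 mitochondrial genes drawn lie to the right of 0 in LG against DP.

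In LG against LL, 4 of the 21 cytosolic genes (19.0%) were called lower and none higher, beside 6.61% and 10.7% of all genes tested. With adjusted p alone, 10 were lower and 4 were higher, against 24.6% and 25.6% of all genes. The cytosolic median was −0.47 and that of all genes 0.02, and relative to the median gene it lay lower by 0.26 to 0.76 under the same 17 alternatives. The 4 called genes were GARS, CARS, YARS and NARS, each of which was also called in DP against LL, a comparison that shares the LL libraries.

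GARS measured 6.79, 5.80 and 12.9 scaled FPKM in LG, all below the lowest LL library, and changed by −2.18 ± 0.30 (adjusted p = 0.000378). CARS measured 9.19, 9.66 and 16.0 (−1.46 ± 0.24, adjusted p = 0.000955). YARS measured 12.6, 11.0 and 23.6 (−1.25 ± 0.26, adjusted p = 0.00366). In each of them, LG replicate 3 was the highest library of its stage. NARS measured 15.7, 15.5 and 28.9 and changed by −1.15 ± 0.24 (adjusted p = 0.0037), but by −0.95 with factors from genes above 10 FPKM. Without scaling, GARS alone of the 4 was still called. In mean deposited FPKM, NARS was higher in LG than in LL (25.3 against 24.28). YARS was nearly level (19.91 against 20.29), and CARS was lower (14.65 against 18.21). MARS (10.1, 9.74 and 14.5), TARS (26.2, 20.3 and 44.1) and WARS (31.9, 38.1 and 19.6) had changes of −0.92, −0.94 and −0.81 and passed adjusted p alone.

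Replicate 3 of LG was the highest library of its stage in 16 of the 21 cytosolic genes (76.2%), while it was the highest in 32.8% of all genes tested and in 5 of the 17 mitochondrial genes. Without it, 7 cytosolic genes were called lower in LG than in LL in place of 4, the added genes being MARS (−1.08), TARS (−1.24) and IARS (−1.04). In DP, replicate 3 was the highest in 13 of the 21 cytosolic genes, beside 38.7% of all genes. Among the mitochondrial genes, replicate 1 was the highest in 11 of 17 in LG (64.7%, beside 36.3% of all genes). In DP, replicate 1 was the highest in 10 of 17 (58.8%, beside 35.4%). The spread between goats was thus shared by many genes of each of these classes at both stages.

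Higher in LG than in LL, with adjusted p alone, were FARSA (0.55), KARS (0.51), DARS (0.45) and QARS (0.40). KARS measured 114, 112 and 96.9 scaled FPKM in LG, above each of the 3 LL libraries (± 0.17, adjusted p = 0.0319). The fold changes of RARS, FARSB and VARS were 0.41, 0.37 and 0.35 and did not pass, nor did those of TARSL2 (0.10), LARS (−0.05), EPRS (−0.20) and HARS (−0.47). SARS, AARS and IARS were lower with adjusted p alone, by −0.59, −0.68 and −0.82. EPRS measured 29.6, 22.9 and 44.0 in LG, and these values overlapped the LL range on both sides.

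In LG against DP, 1 cytosolic gene (4.76%) was called lower and none higher, beside 6.88% and 6.37% of all genes tested. The called gene was TARSL2 (−1.21 ± 0.15, adjusted p = 0.000335). With adjusted p alone, 7 cytosolic genes (33.3%) were higher in LG, against 18.4% of all genes, namely KARS (0.96 ± 0.17, adjusted p = 0.00244), QARS (0.76), YARS (0.76), WARS (0.71), EPRS (0.69), VARS (0.54) and DARS (0.47). The cytosolic median was 0.30 and that of all genes 0.01, and the other 12 positive values, none of which passed, reached from 0.02 in HARS to 0.49 in FARSB. KARS lay just below the fold threshold, and was called without DP replicate 1 (1.06), without DP replicate 2 (1.00) or without LG replicate 3 (1.03). GARS was the other cytosolic gene with a negative value, −0.23, with an interval from −0.91 to 0.44.

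The composition of the cytosolic set does not depend on scaling, since each gene can be given as a share of the summed cytosolic FPKM of its own library. The share of GARS was 6.37% ± 1.04 (SD, n = 3) in LL, but 2.91% ± 0.78 in DP and 1.69% ± 0.51 in LG. That of YARS was 5.83% ± 0.43, 2.51% ± 0.40 and 3.14% ± 0.88. The share of KARS went the other way, with 11.9% ± 0.96 in LL, 16.4% ± 3.73 in DP and 22.5% ± 4.75 in LG, and its LG libraries lay above all LL libraries while DP overlapped both. Within each library, the ratio of GARS to KARS was 0.467 to 0.658 in LL, with 0.103 to 0.284 in DP and 0.0517 to 0.133 in LG.

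Taken over the cytosolic set, the shares of 8 genes lay wholly higher in DP than in LL, 7 lay wholly lower and 6 overlapped. In scaled FPKM, 32.5% of all genes tested lay wholly higher and 33.4% wholly lower in that comparison. The shares of a library have a fixed total, so lower shares of some genes raise those of others. Shares and scaled FPKM are therefore unlike measures. The shares that were lower in DP were those of TARS, WARS, NARS, GARS, YARS, CARS and MARS, the same genes that were called lower from the same values. QARS, FARSB, DARS, LARS, RARS, VARS, FARSA and TARSL2 took larger shares. In LG against LL, 8 shares lay wholly higher, 8 wholly lower and 5 overlapped, beside 31% and 30.2% of all genes in scaled FPKM. In LG against DP the shares of SARS, IARS, FARSA and TARSL2 lay wholly lower, none lay wholly higher and 17 overlapped, beside 22.8% and 25.1% of all genes.

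**Figure D3:**
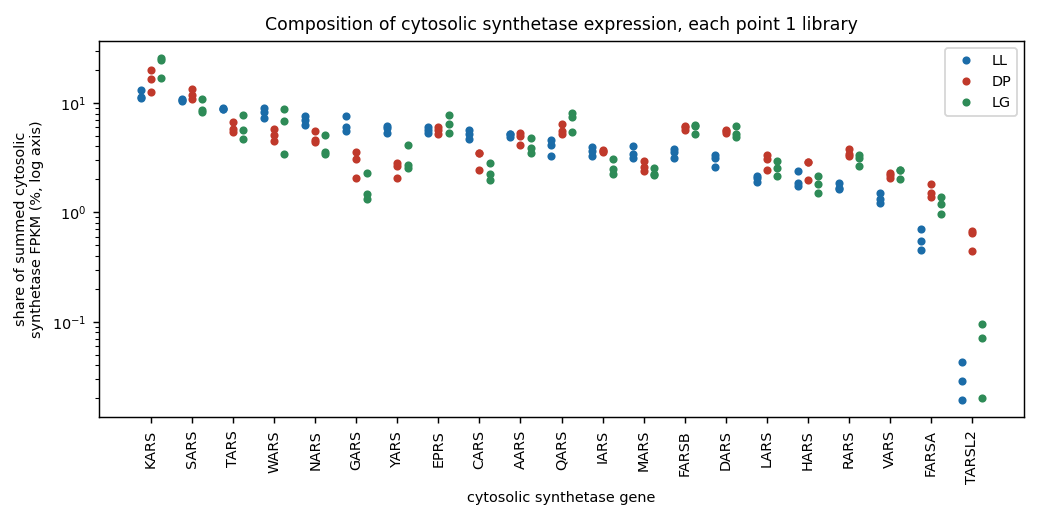
Share of each cytosolic synthetase gene in the summed cytosolic synthetase FPKM of its library, in percent on a log axis, with 1 point per library and genes ordered by their mean share in LL. The KARS share is 11.2% to 13.0% in LL and 17.0% to 25.8% in LG, and the GARS share is 5.51% to 7.52% in LL and 1.33% to 2.27% in LG.

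The cytosolic genes were also divided by the complex to which their proteins belong. The 8 genes of the multisynthetase complex (EPRS, IARS, LARS, MARS, QARS, RARS, KARS and DARS) had medians of −0.41 (DP against LL), 0.18 (LG against LL) and 0.39 (LG against DP). The 13 genes outside it had medians of −0.96, −0.68 and 0.23. In DP against LL, 1 of the 8 (12.5%) and 6 of the 13 (46.2%) were called lower, beside 8.79% of all genes. The called gene of the complex was MARS. MARS, LARS and QARS in the complex and HARS outside it follow a neighbouring gene, as described at the end. The difference between these lists was not tested.

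A second division was chosen after the values were seen. It took the 12 cytosolic genes that are known as ATF4 targets (AARS, CARS, EPRS, GARS, IARS, LARS, MARS, NARS, SARS, TARS, WARS and YARS). Their median was −1.30 in DP against LL and −0.87 in LG against LL, while that of the other 9 genes was −0.12 and 0.40. The ratio of the summed FPKM of the 12 to that of the 9, which needs no scaling, was 2.49 to 2.61 in LL, but 1.12 to 1.49 in DP and 0.894 to 1.34 in LG. The LL libraries lay above all others, and as the division followed the values, this is a description only.

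Among the mitochondrial genes, 3 of 17 (17.6%) were called higher and 1 (5.88%) lower in DP against LL, close to the 13.8% and 8.79% of all genes tested. With adjusted p alone, 3 (17.6%) were higher and 6 (35.3%) lower, against 28.2% and 28.6% of all genes. Their median was −0.05, close to the 0.00 of all genes. Among the higher genes were VARS2 and PARS2, the valyl and prolyl enzymes of the mitochondria, and the lower one was MARS2, the methionyl enzyme.

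VARS2 (gene ID 102170283, chromosome 23, 21833817 to 21846369) had the largest change. It measured 0.24, 0.18 and 0.21 deposited FPKM in LL, with 5.17, 4.66 and 4.41 in DP and 3.92, 3.86 and 5.14 in LG. All 6 libraries of DP and LG lay above those of LL, with changes of 1.61 ± 0.11 in DP (adjusted p = 5.97e-06) and 1.68 ± 0.11 in LG (adjusted p = 6.64e-06). PARS2 measured 0.14, 0.14 and 0.06 in LL, but 3.73, 3.20 and 2.35 in DP and 3.44, 2.64 and 2.88 in LG, and its changes were 1.35 ± 0.14 and 1.49 ± 0.14 (adjusted p = 6.29e-05 and 5.02e-05). Every LL value of PARS2 lay below every DP and LG value. Because a pseudocount of 1 was added, these values understate the relative change of such low genes. Both genes reached 0.5 FPKM in DP and LG libraries alone, and so passed the filter through the stages in which they were high.

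These genes and TARSL2 share a property of the table. Few deposited values lay near 0.7 FPKM in LL. There, 6996 values lay from 0.1 to 0.3 FPKM, 286 from 0.6 to 0.8 and 2689 from 1.6 to 1.8. In LG these counts were 5152, 384 and 1436. In DP they were 4994, 892 and 862, so the range from 0.6 to 0.8 was no emptier than that from 1.6 to 1.8. Of the 23499 genes, 11781 lay above 0.7 FPKM in all 3 LL libraries, 11569 lay at or below it in all 3 and 149 were mixed. Mixed genes numbered 291 in LG and 1161 in DP. VARS2, PARS2 and TARSL2 lay below 0.7 FPKM in all 3 LL libraries and above it in all 3 DP libraries. The same held for 1493 of the 2029 genes called higher in DP (73.6%), and for 1197 of the 1572 called higher in LG than in LL (76.1%).

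**Figure D4:**
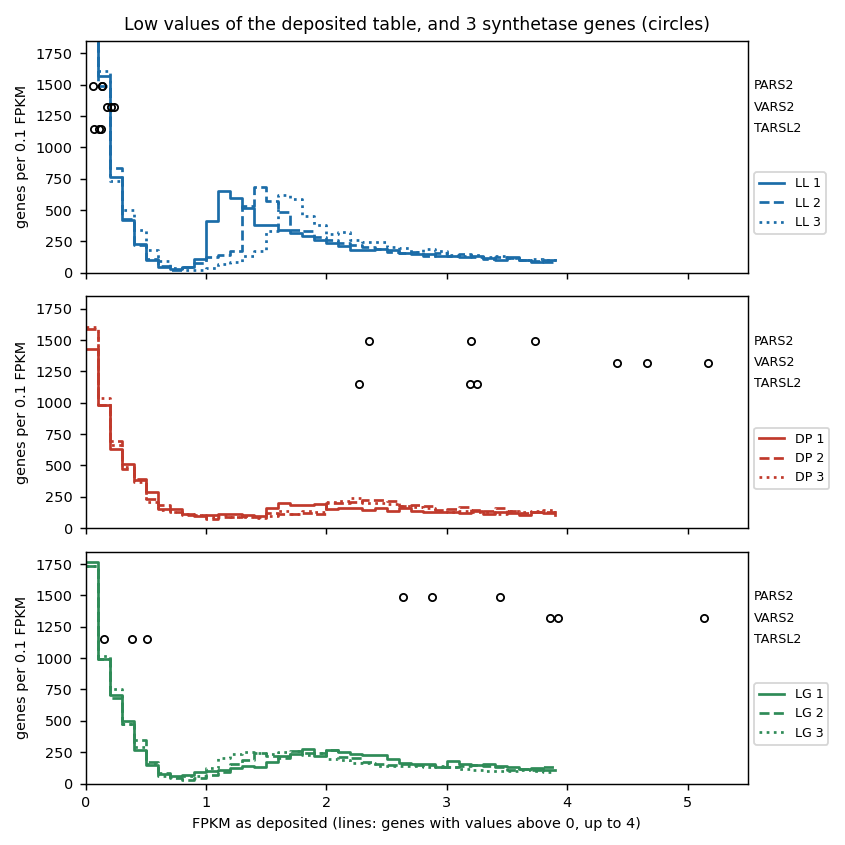
Number of genes per 0.1 FPKM against deposited FPKM, for values above 0 and up to 4 in each library of LL, DP and LG, with the first bin of some libraries above the axis; circles give TARSL2, VARS2 and PARS2 in the 3 libraries of the stage, at heights that carry no value. In LL and LG the counts are low around 0.7 FPKM, while in DP they fall further above it. In LL all 9 circles lie at 0.24 FPKM or less.

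Fixed amounts of 1.0 to 1.5 FPKM, described at the end, were also subtracted where a gene lay above 0.7 FPKM in all 3 libraries of a stage. The call of VARS2 then remained. Those of PARS2 (0.68 in DP, 0.87 in LG) and TARSL2 (0.63 against LL, −0.59 in LG against DP) no longer reached the fold threshold.

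MARS2 measured 6.41, 9.29 and 8.46 scaled FPKM in LL, but 2.39, 2.34 and 2.30 in DP and 2.71, 5.46 and 7.74 in LG. Its DP libraries lay below all LL libraries and agreed closely with each other, while the LG libraries were spread between them. The change in DP was −1.42 ± 0.27 (adjusted p = 0.00175), and −0.89 with factors from genes above 10 FPKM. CARS2 (cysteinyl), YARS2 (tyrosyl), WARS2 (tryptophanyl), AARS2 (alanyl) and NARS2 (asparaginyl) were lower in DP with adjusted p alone, by −0.94, −0.75, −0.42, −0.39 and −0.35. Without scaling each of these changes was positive. The remaining genes did not pass, with fold changes from −0.23 in HARS2 (histidyl) to 0.30 in SARS2 (seryl). Between these lay FARS2 (phenylalanyl, −0.10), IARS2 (isoleucyl, −0.05), TARS2 (threonyl, 0.00), LARS2 (leucyl, 0.00), RARS2 (arginyl, 0.14) and EARS2 (glutamyl, 0.24).

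In LG against LL, 3 mitochondrial genes were called higher (17.6%), VARS2 and PARS2 among them, and none was called lower, beside 10.7% and 6.61% of all genes. With adjusted p alone, 8 of 17 (47.1%) were higher and 2 lower, beside 25.6% and 24.6% of all genes tested. LARS2 (0.69), EARS2 (0.68), SARS2 (0.65), IARS2 (0.51) and FARS2 (0.44) were higher, and YARS2 (−0.52) and AARS2 (−0.29) were lower. The mitochondrial median was 0.41, and relative to the median gene it lay higher by 0.32 to 0.46 under the 17 alternatives. The values of CARS2 (0.41), RARS2 (0.39), WARS2 (0.11), TARS2 (0.04), HARS2 (−0.04), NARS2 (−0.25) and MARS2 (−0.59) did not pass.

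The 17 mitochondrial genes all had positive fold changes, from 0.04 in TARS2 to 1.35 in CARS2, in LG against DP, with a median of 0.25 beside 0.01 for all genes. CARS2 was called higher (5.88% of the mitochondrial genes, beside 6.37% of all genes). With adjusted p alone, 7 of 17 (41.2%) were higher, namely CARS2, MARS2 (0.83), LARS2 (0.69), IARS2 (0.55), FARS2 (0.54), WARS2 (0.53) and EARS2 (0.44), against 18.4% of all genes. Under scaling by genes above 10 FPKM the mitochondrial median was −0.05 while that of all genes was −0.36, so the common sign rests on the scaling and the distance from the median gene does not.

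CARS2 (gene ID 102171889, chromosome 12, 1048304 to 1066956) measured 17.1, 14.9 and 13.8 scaled FPKM in LL, with 8.50, 7.50 and 6.52 in DP and 19.3, 17.1 and 26.4 in LG. On this scale its DP libraries were the lowest and did not overlap either other stage. The change from DP to LG was 1.35 ± 0.18 (adjusted p = 0.000516), and 0.92 with factors from genes above 10 FPKM. In deposited FPKM the DP values of 9.38 to 12.99 lay above the 8.23 to 8.52 of LL. The place of DP below LL thus rested on the scaling. CARS, its cytosolic counterpart, was low in both DP and LG. The ratio of CARS2 to CARS within a library was 0.393 to 0.593 in LL, but 0.525 to 1.12 in DP and 1.65 to 2.10 in LG, the LG libraries lying above the other 6.

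The classes were further compared by amino acid. For 16 amino acids with a cytosolic and a mitochondrial gene in the table, the mitochondrial fold change lay above the cytosolic one in 14 in DP against LL, with a median difference of 0.91, and in 14 in LG against LL, with a median difference of 0.89. These comparisons share the LL libraries. The valyl pair had the largest difference in DP against LL (1.8), followed by the threonyl pair (1.44), and the phenylalanyl and methionyl pairs were the exceptions (−0.56 and −0.20). FARS2 was set against FARSA in these counts. Against FARSB, the other subunit, the phenylalanyl difference was 0.02, and 15 of 16 differences were positive in both comparisons. The LL values of VARS2 lay below the sparse range. HARS, HARS2, LARS, MARS, SARS2 and TARS2 follow a neighbouring gene, as described at the end, so the differences of their pairs are uncertain. Between LG and DP, 7 of the 16 differences were positive and the median was −0.08. The summed mitochondrial FPKM was 0.149 to 0.154 of the summed cytosolic FPKM in LL, with 0.208 to 0.275 in DP and 0.211 to 0.262 in LG, a ratio that needs no scaling and in which LL lay below the other stages. Both sums include genes that follow a neighbour.

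AIMP1, a scaffold protein of the multisynthetase complex, measured 19.7, 20.2 and 19.6 scaled FPKM in LL, but 13.0, 12.8 and 11.8 in DP and 28.5, 25.3 and 19.8 in LG. It was lowest in DP with no overlap, at −0.62 ± 0.15 against LL (adjusted p = 0.00621) and 0.90 ± 0.15 in LG against DP (adjusted p = 0.00167), which passed adjusted p alone. The fall in DP rested on the scaling, since the change was 0.01 with factors from genes above 10 FPKM and 0.70 without scaling, and mean deposited FPKM was higher in DP than in LL (18.4 against 10.9). The difference of LG from LL was 0.28 and did not pass. AIMP2, the second scaffold protein, measured 7.90, 4.66 and 5.93 in LL, with 2.63, 4.32 and 5.59 in DP and 4.57, 4.82 and 13.2 in LG. Its stages overlapped in all 3 comparisons, with intervals of −1.30 to 0.32, −0.68 to 0.94 and −0.19 to 1.43, and 1 library, LG replicate 3, set its LG mean.

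The partners of tRNA charging were examined as a list of 25 genes, of which 22 were tested. In DP against LL, 1 was called higher (4.55%) and 2 lower (9.09%), no more than the 13.8% and near the 8.79% of all genes, with a median of −0.22. GATB, a subunit of the mitochondrial enzyme that makes glutaminyl tRNA from the product of EARS2, was higher (1.19), and its LL values of 0.08 to 0.23 FPKM lay below the sparse range. PPA1, which splits the pyrophosphate released by the synthetases, fell by 2.26 on the log2 scale, and EEF1B2, an exchange factor of the elongation complex, fell by 1.08. Mean deposited FPKM of EEF1B2 was higher in DP than in LL (321 against 255), so its fall rested on the scaling. In LG against LL, GATB was higher (1.53) and PPA1 lower (−1.49), the 2 called genes (4.55% in each direction, beside 10.7% and 6.61%), with a median of 0.38. Against DP, LG had 4 called higher (18.2%, beside 6.37% of all genes) and none lower, with EEF1B2 (2.08) and EEF1A1 (1.45), which carries charged tRNA to the ribosome, the largest, and the median was 0.31. EEF1D and EEF1G, the other called genes, are among those whose values follow a neighbour, described at the end. Their part in this count is therefore uncertain.

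The ATF4 amino acid response list holds 33 genes and no synthetase. In DP against LL, 22 of 33 (66.7%) were called lower and 1 (3.03%) higher, beside 8.79% and 13.8% of all genes, with a median of −1.64. Of the genes called lower, MTHFD2 and EIF4EBP1 were higher in DP in mean deposited FPKM, and the others were lower. MTHFD2 stood at 17.3 in DP against 14.7 in LL, and EIF4EBP1 at 56.9 against 53.7. TRIB3, a feedback inhibitor of ATF4, and PSAT1, an enzyme of serine synthesis, had the largest falls (−3.94 and −3.85), and STC2, a secreted glycoprotein, was higher (1.55). In LG against LL, 19 (57.6%, beside 6.61% of all genes) were called lower and none higher, with TRIB3 (−4.05) and PSPH (−3.42), which completes serine synthesis, the largest and a median of −1.80. In LG against DP the median was 0.02, CTH (2.17) and GPT2 (1.99) led 3 genes called higher (9.09%, beside 6.37%), and STC2 (−4.05) and MTHFD2 (−1.12) were called lower (6.06%, beside 6.88%). ATF4 itself changed by −1.84 in DP and −1.87 in LG against LL.

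The genes of tRNA transcription, processing and export (54 listed, 52 tested) had medians of 0.06 for DP and 0.27 for LG against LL, and 0.17 for LG against DP, beside 0.00, 0.02 and 0.01 for all genes. In DP against LL, 5 were called higher (9.62%, below the 13.8% of all genes), led by RPP38 (1.73) and POLR3A (1.63), subunits of RNase P and of RNA polymerase III, and HSD17B10, a subunit of mitochondrial RNase P, was lower (−1.51). The deposited FPKM of HSD17B10 was 28.0 to 36.3 in LL and 28.3 to 30.5 in DP, and these ranges overlapped. In LG against LL, 7 were called higher (13.5%, beside 10.7%), among them GTF3C1 (1.8), of TFIIIC. By adjusted p alone, 32.7% were higher and 9.62% lower there, against 25.6% and 24.6% of all genes. The values of RPP38 and POLR3A in LL were 0.45 FPKM or less, below the sparse range. When LG was set against DP, HSD17B10 (1.39) and TSEN34 (1.32) were the 2 genes called higher (3.85%, beside 6.37%).

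Of 28 regulators of the mTOR and MYC pathways, which control translation, 24 were tested, and their medians were 0.00 for DP and −0.11 for LG against LL, and 0.01 for LG against DP. SESN2, an inhibitor of mTOR, was called lower in DP and LG than in LL (−3.09 and −3.32). EIF4EBP1, a translation repressor held by mTOR, was lower in DP (−1.33) and higher in LG than in DP (1.93), and SESN3 was higher in DP than in LL (1.17). The fall of EIF4EBP1 in DP rested on the scaling, since its mean deposited FPKM was 56.9 in DP and 53.7 in LL. EIF4EBP1 is among the genes whose values follow those of a neighbour, described at the end, and its values are uncertain as measurements of that gene. SESN2 and EIF4EBP1 also stand on the ATF4 list, and no other regulator was called. The 1 called higher (4.17%) and 2 called lower (8.33%) in DP against LL were no more than the 13.8% and 8.79% of all genes.

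The values of 7 members could be derived exactly from those of a neighbouring gene. HARS equalled DND1, and LARS equalled PLAC8L1, plus 1.0, 1.3 and 1.5 FPKM in the 3 LL libraries, 1.0, 1.5 and 1.5 in DP and 1.5, 1.2 and 1.0 in LG. TARS2, MARS and SARS2 equalled RPRD2, MBD6 and CCER2 minus the same amounts. HARS2 and QARS equalled ZMAT2 and USP19 plus these amounts and a further 0.27 and 0.31 FPKM.

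Each of these 7 pairs lies on 1 strand among close neighbours. In the whole table, 1510 genes followed a neighbour to within 1% of their range. That looser count took either strand and any slope, intercept and multiple of the amounts, so it is not a count of exact equality. Which gene of a pair the shared value measures cannot be told apart, so the values of HARS, LARS, MARS, QARS, HARS2, SARS2 and TARS2 are uncertain as measurements of those genes. Of these, MARS was called in a comparison (DP against LL). HARS2 and HARS lie head to head, 71 bases apart on chromosome 7.

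**Figure D5:**
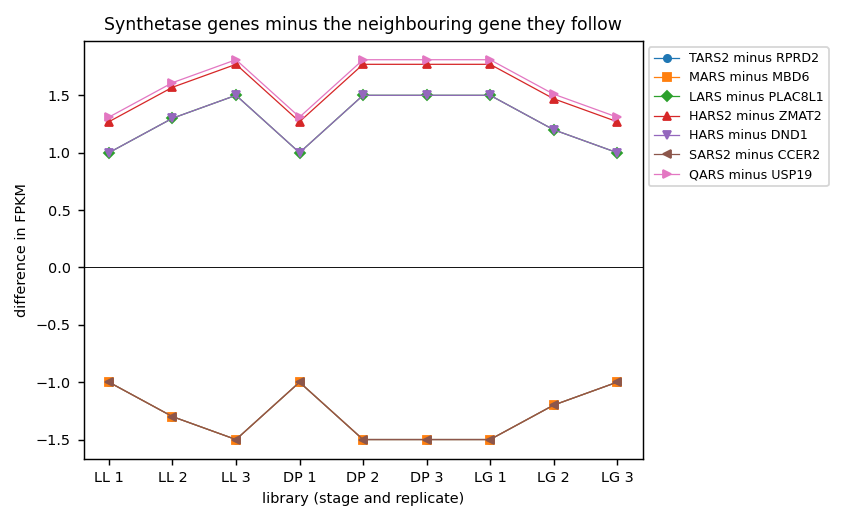
Deposited FPKM of 7 synthetase genes minus that of the neighbouring gene each follows, by library. The lines of TARS2, MARS and SARS2 coincide from −1.0 to −1.5 FPKM, those of LARS and HARS coincide from 1.0 to 1.5 FPKM, and HARS2 and QARS lie 0.27 and 0.31 FPKM above the latter.

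The library kit did not mark strand, and reads from overlapping genes on opposite strands cannot be told apart. MARS overlaps DDIT3, a stress factor induced by ATF4, by 65 bases on the opposite strand, and DDIT3 changed by −1.23 in DP and −1.72 in LG against LL. In mean deposited FPKM, DDIT3 was nearly level between LL (4.72) and DP (4.42), with 2.80 in LG. RARS2 overlaps SLC35A1 by 16092 bases, and AIMP2 overlaps LOC108633891 by 2237 and EIF2AK1 by 4 bases. IARS2 holds MIR194 and MIR215. The other 36 members overlap no gene of the table.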

How the data were processed

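Total RNA of mammary tissue from 9 goats (3 per stage) was sequenced from unstranded TruSeq libraries. The submitters' notes name FastQC, Trimmomatic, HISAT2, SAMtools and HTSeq, and the study's methods describe FPKM from assembled transcripts. The table the authors deposited holds 1 value per gene and library and names neither unit nor build. The deposited values were read as FPKM of the authors, so reads per value are unknown, no count test was run and only the number of goats limits the stated precision. Gene names and coordinates are those of the deposited table, and all 40 members matched RefSeq ARS1.2 by gene ID, which was used for matching only.

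Median-ratio factors came from 15905 genes, and log2(scaled FPKM + 1) was analysed. Genes reaching 0.5 FPKM in 3 or more libraries (14701) entered 1 limma 3.58.1 fit with a mean-variance trend (R 4.3.3) on all 9 libraries, without covariates and with Benjamini-Hochberg adjustment over all genes. Shares were computed in R and linked values in Python 3.11.15. With 3 goats per stage, an exact permutation test cannot go below p = 0.1, so none was run. Linked values were sought among the 8 next genes on either side, at 1% of the range.

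The members, lists and tests were chosen with earlier results of these data known. Members are named, with library values for those called in any comparison, for those with the largest change per class and for AIMP1, AIMP2, EPRS, WARS, GARS and KARS. Of other lists, the 2 called genes with the largest change in each direction are named. Beside them stand ATF4, DDIT3, EEF1D and EEF1G, chosen after their values were seen. Some genes are counted but not reported here by name or in the figures. Alternatives covered scaling, pseudocount, filter, libraries in the fit, replicate block, trend, threshold, linked genes and each library left out. Subtraction of the fixed amounts, scaling by 1473 genes above 10 FPKM and the pairing of FARS2 with FARSB were added after the values were seen.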

Additional observations from a re-analysis of the deposited data

How the results depend on the processing

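The main limit is the scaling between stages. Without it, the median of all genes moved to 1.09 (DP against LL), 0.93 (LG against LL) and −0.18 (LG against DP), and the genes called higher and lower became 7979 and 369, 6698 and 345, and 715 and 1577 (2029 and 1292, 1572 and 972, and 937 and 1011 with scaling). Scaling by genes above 10 FPKM moved the median to 0.54, 0.17 and −0.36 and the calls to 4035 and 644, 1806 and 768, and 470 and 2075. Subtracting the fixed amounts moved it to 0.12 in DP against LL. The cause of these shifts was not tested.

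The 8 cytosolic genes called in DP against LL became 5 with quantile normalization, 4 (2 higher and 2 lower) with scaling by genes above 10 FPKM, 13 with adjusted p alone and 6, all higher, without scaling. The 4 called in LG against LL became 9 without scaling, 14 with adjusted p alone and 10 with the amounts subtracted, and the 1 called in LG against DP became 8 with adjusted p alone. The 4 mitochondrial genes called in DP against LL became 9 both without scaling and with adjusted p alone, the 3 in LG against LL became 13 and 10, and the 1 in LG against DP became 2 with a pseudocount of 0.1, 7 with adjusted p alone and 0 with scaling by genes above 10 FPKM. Leaving out 1 library gave 8 to 9, 4 to 7 and 1 to 2 cytosolic calls, and 4 to 5, 3 to 3 and 1 to 2 mitochondrial calls, in the same order of comparisons. The second cytosolic call of LG against DP, KARS, came without DP replicate 1, DP replicate 2 or LG replicate 3, the second mitochondrial one, MARS2, without LG replicate 1, and the 7 without LG replicate 3.

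The signs followed here are those of changes that passed adjusted p alone, and of AIMP2. Changes that did not pass are left out, although some of these genes also rose in mean deposited FPKM. QARS stood at 13.8 in LL and 28.4 in DP, and EPRS at 19.8 in LL and 40.5 in LG. Without scaling, the negative changes of DP against LL turned positive for KARS (0.94), NARS2 (0.75), AIMP1 (0.70), WARS2 (0.69), AIMP2 (0.67), SARS (0.66), AARS2 (0.64), IARS (0.49), EPRS (0.47), AARS (0.40), CARS2 (0.35), YARS2 (0.19) and MARS (0.10). Those of LG against LL turned for SARS (0.57), AARS2 (0.57), AARS (0.45), WARS (0.33), IARS (0.29), YARS2 (0.29), TARS (0.21) and MARS (0.19). With scaling by genes above 10 FPKM, KARS (0.21), NARS2 (0.18), WARS2 (0.12), AARS2 (0.11), AIMP2 (0.070) and AIMP1 (0.013) turned in DP against LL, KARS also with quantile normalization (0.28), and AARS2 turned in LG against LL with the amounts subtracted (0.069). AIMP2 in LG against LL lay between −0.30 (without LG replicate 3) and 0.37 (without LG replicate 1) when 1 library was left out, and was −0.037 without LL replicate 2.

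The filter on low values, the libraries in the fit, the mean-variance trend and the removal of linked genes left each count within 1.5 times its value. Same-numbered goats deviated together with correlations of −0.11 to 0.20, so the numbers were not taken to pair them, and with the replicate block the counts were 8, 4 and 1 cytosolic and 4, 3 and 1 mitochondrial calls, as without it.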
